A study of Mus musculus with 22 samples.

Results

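Across inguinal white adipose tissue (IWAT) of tumor-bearing mice, 44 genes of the cell cycle and of DNA replication were examined out of 23420 gene symbols in the count table. They were taken by symbol from a fixed list that was chosen with earlier results of these data known. All 44 were present and passed the filter on low counts that left 14458 genes for testing. The list holds 17 S-phase genes, 26 mitotic genes and the G1 cyclin Ccnd1, and the classes are described separately. RNA was sequenced from 22 libraries of 11 female wildtype C57Bl/6 mice, of which 5 were kept lean on chow and 6 were made obese with high-fat diet (HFD) over 16 weeks. E0771 cells, a breast cancer line of the mouse, were injected in a mixture of PBS and Matrigel into the left pad, and the mixture alone into the right pad. Both pads were collected 2 weeks later, which gives 4 groups: lean control, lean tumor-associated, obese control and obese tumor-associated IWAT. Every mouse received tumor cells, so that the control pad is that of an animal with a tumor on the other side, and tumor and left side cannot be told apart. Each library had 5759775 to 8598108 counts on genes.

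A cell that commits to division passes from G1 into S phase when D- and E-type cyclins and their kinases lift the hold of the retinoblastoma family on E2F factors, which drive genes of replication. MCM helicase subunits are loaded onto origins and then travel with the polymerases. Mitotic genes are transcribed later, in G2 and M, from promoters read by the MuvB complex with B-Myb and Foxm1. Mature adipocytes are mostly out of cycle, but adipose tissue also holds immune, vascular, stromal and epithelial cells that can divide.

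Promoter letters of both classes are described first. Of the 44 members, 33 had an entry in the RefSeq promoter table (build GRCm38.p6), which holds 250 bases before to 50 bases after each gene start. The cell cycle homology region (CHR, TTTGAA on either strand) lay in 15 of 20 mitotic genes and in 2 of 13 S-phase genes, against 17.9% of all 32851 promoters. A variant of it, TTCGAA, was found in 3 mitotic genes and 1 S-phase gene, against 1.56% of all promoters. The CCAAT box, on either strand, lay in 18 of 20 mitotic and 9 of 13 S-phase genes, against 37.4% of all. Letters of the E2F site (TTTGGCGC, TTTCCCGC, TTTCGCGC or TTTGCCGC on either strand) lay in 5 of 13 S-phase genes, all of them Mcm3, Mcm5, Mcm6, Mcm7 or Cdc6, in 1 of 20 mitotic genes, Cdk1, and in 2.26% of all. TATAAA was found in 0 of 20 mitotic genes and in 1 of 13 S-phase genes, Cdc45, against 13.6% of all. A match is a run of letters, not a bound site, and the entries are 13 and 20 genes only. Members were counted per gene and the share of all per promoter, although some members, such as Mcm7 and Prc1, have more than 1 entry. Foxm1, Tpx2, Ccne2, Kif20a, Cdc25c, Gins2, Pole, Aurkb, Ccnd1, Mcm4 and Ccna2 had no entry.

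The 5 windows below, each the 150 bases before the RefSeq gene start, show how these letters sit in the mitotic genes Cdc20, Cdk1 and Kif11 and in the helicase genes Mcm5 and Mcm6. Capitals mark CHR, CCAAT and E2F letters on either strand, so that TTCAAA is CHR and ATTGG is CCAAT on the opposite strand.
Cdc20: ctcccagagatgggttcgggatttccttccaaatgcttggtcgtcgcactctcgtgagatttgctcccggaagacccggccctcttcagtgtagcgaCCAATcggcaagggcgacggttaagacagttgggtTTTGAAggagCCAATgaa
Cdk1: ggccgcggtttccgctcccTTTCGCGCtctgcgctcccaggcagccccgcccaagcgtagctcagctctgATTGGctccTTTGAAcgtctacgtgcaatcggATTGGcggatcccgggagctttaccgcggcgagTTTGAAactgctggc
Kif11: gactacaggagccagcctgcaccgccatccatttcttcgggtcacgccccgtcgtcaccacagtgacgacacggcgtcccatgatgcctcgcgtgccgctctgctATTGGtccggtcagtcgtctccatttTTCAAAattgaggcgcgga
Mcm5: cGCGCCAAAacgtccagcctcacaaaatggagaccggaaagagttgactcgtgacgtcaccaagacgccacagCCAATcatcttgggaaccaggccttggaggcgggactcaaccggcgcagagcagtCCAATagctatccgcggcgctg
Mcm6: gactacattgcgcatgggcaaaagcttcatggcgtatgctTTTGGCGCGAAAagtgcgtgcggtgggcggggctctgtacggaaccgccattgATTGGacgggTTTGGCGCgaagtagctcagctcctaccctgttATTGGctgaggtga
They lie at chr4:118437344-118437493 (minus strand, Cdc20), chr10:69352913-69353062 (minus strand, Cdk1), chr19:37376232-37376381 (plus strand, Kif11), chr8:75109359-75109508 (plus strand, Mcm5), chr1:128359706-128359855 (minus strand, Mcm6) on GRCm38.p6. In Cdc20, Cdk1 and Kif11 a CHR lay 18, 15 and 19 bases before the start, downstream of a CCAAT box. In Mcm6, 2 of the 3 E2F matches overlapped each other.

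**Figure D1:**
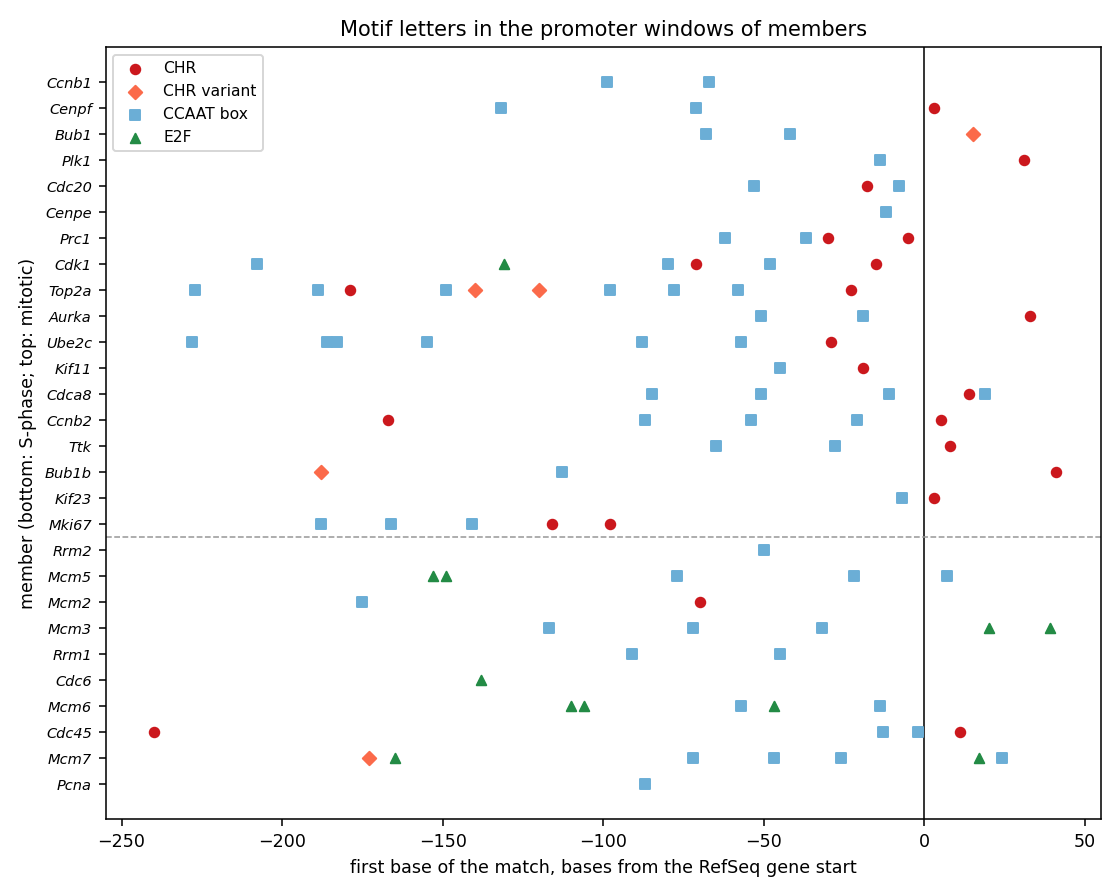
Positions of motif letters in the promoter windows of members that hold any, with the first base of each match in bases from the RefSeq gene start on the x axis and members on the y axis, S-phase genes at the bottom and mitotic genes at the top. Circles are CHR, diamonds its variant, squares CCAAT and triangles E2F letters; circles gather in the mitotic rows, 15 of 20 genes, and triangles in the S-phase rows, 5 of 13.

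Expression is given as CPM, the counts of a gene scaled to an equal library total after TMM normalization, with n = 5 mice per lean group and n = 6 per obese group. Differences were tested with edgeR's quasi-likelihood test over all 14458 genes in 1 fit, and the threshold for a call was 0.05 on the p adjusted by Benjamini-Hochberg. Per kilobase of exon (GENCODE M21), Ccnd1 was the most abundant member in lean control IWAT, at 34.4 CPM per kb. Pcna, the sliding clamp of the polymerases, led the S-phase genes there at 17.8, and Mki67, whose product coats mitotic chromosomes, led the mitotic genes at 6.63. The lowest were Cdc6, which helps to load the helicase, at 0.795 and Cdc25c, a phosphatase that activates Cdk1, at 0.171. In obese tumor-associated IWAT the order at the top of the mitotic genes changed. Top2a, which untangles replicated DNA, had 42.9 CPM per kb, Ccna2 42.6 and Mki67 33.2.

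Tumor-associated IWAT of obese mice held far more transcript of both classes than control IWAT. All 17 S-phase and all 26 mitotic genes rose, as did Ccnd1, in a comparison in which 26.8% of all tested genes were called higher and 27.7% lower. The median log2 fold change was 1.67 for S-phase genes and 2.86 for mitotic genes, against -0.015 over all tested genes. In each of the 44 members the tumor-associated pad was higher than the control pad in 6 of 6 mice, as in 18.6% of tested genes. The groups did not overlap for 15 of 17 S-phase genes and 26 of 26 mitotic genes, against 9.95% of tested genes, and did for Ccne1, Mcm7 and Ccnd1. In bulk tissue more cycling cells, of the host or of the injected E0771 line, and more transcript per cycling cell cannot be told apart.

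Summed over the 26 mitotic genes, the 5 lean control libraries had 85.2, 223, 104, 429 and 323 CPM (mice 0, 2, 3, 6 and 9). Lean tumor-associated libraries of the same mice had 444, 509, 284, 961 and 408 CPM. Each mouse rose, by ratios of 5.21, 2.28, 2.73, 2.24 and 1.26, although the groups overlapped. In obese mice the lowest, median and highest control libraries had 252, 322 and 610 CPM, and tumor-associated libraries 1022, 2035 and 4886 CPM. Here the groups were apart, and the ratio of the pads of a mouse ran from 3.71 to 13.3. The S-phase sum moved less. It was 206, 261, 222, 440 and 279 CPM in lean control, 374, 434, 302, 635 and 302 CPM in lean tumor-associated, 278 to 395 CPM in obese control and 594 to 1722 CPM in obese tumor-associated libraries. Mean log2 change between the pads was larger for mitotic than for S-phase genes in 11 of 11 mice, by 0.19 to 1.22 in lean and 0.60 to 1.45 in obese mice. The ratio of the mitotic to the S-phase sum was 0.414 to 1.15 in lean control and 1.72 to 2.84 in obese tumor-associated libraries.

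**Figure D2:**
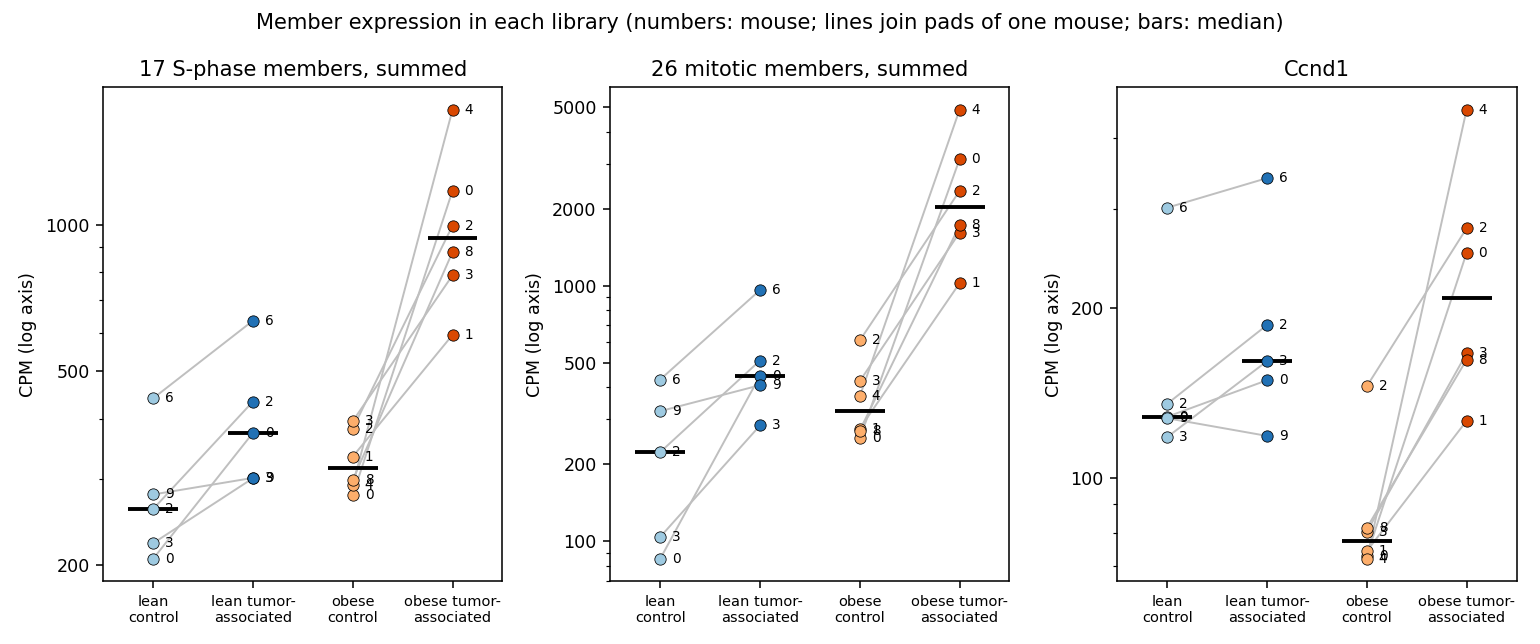
Summed CPM of the 17 S-phase members, summed CPM of the 26 mitotic members and CPM of Ccnd1 on log axes, with 1 point per library, grey lines between the pads of a mouse, mouse numbers beside the points and bars at group medians. The 6 obese tumor-associated libraries lie above all obese control libraries for both sums, from 1022 to 4886 CPM for the mitotic sum, while Ccnd1 groups overlap.

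At the entry to the cycle, Ccnd1, the D-type cyclin that activates Cdk4 and Cdk6, was lowest in obese control IWAT. It was 128, 135, 118, 301 and 128 CPM in lean control and 149, 187, 161, 340 and 119 CPM in lean tumor-associated libraries (mice 0, 2, 3, 6 and 9). Mouse 6 stood above the others in both pads, and the groups overlapped. Obese control libraries had a lowest, median and highest value of 72.0, 77.3 and 145 CPM and obese tumor-associated libraries 126, 208 and 449 CPM. The rise in obese mice had a log2 fold change of 1.44 (SE 0.32, adjusted p = 0.00102 by edgeR), and without tumor-associated mice 0, 2 and 4 it was 0.78 and missed the threshold (adjusted p = 0.0712 by edgeR); in lean mice it was 0.24 (SE 0.34, adjusted p = 0.903 by edgeR). Unlike the mitotic genes, Ccnd1 in control IWAT was lower in obese than in lean mice on average, 162 ± 77.9 CPM in lean (SD, n = 5) and 87.8 ± 28.5 CPM in obese mice (SD, n = 6), a difference that missed the threshold (log2 fold change -0.88, adjusted p = 0.0687 by edgeR) but passed with DESeq2 (-0.90, adjusted p = 0.036). Exons of Ccnd1 share 23.4% of their bases with a gene on the opposite strand, and the strand setting of the count is not given in the sources used here.

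Ccne1 and Ccne2, the E-type cyclins that work with Cdk2 at the start of S phase, both rose in obese mice. Ccne1 had a lowest, median and highest value of 2.77, 5.21 and 7.88 CPM in obese control and 6.47, 14.5 and 33.3 CPM in obese tumor-associated libraries, a log2 fold change of 1.67 (SE 0.35, adjusted p = 0.000683 by edgeR). For Ccne2 these were 4.41, 5.63 and 8.02 CPM against 14.4, 21.4 and 34.1 CPM (1.95, SE 0.28, adjusted p = 2.65e-05 by edgeR), and only Ccne2 was without overlap. E2f1, the activator of S-phase genes, went from 6.25, 10.4 and 13.5 CPM to 18.0, 22.2 and 27.9 CPM (1.17, SE 0.23, adjusted p = 0.00037 by edgeR). Its rise was among the smaller ones of the class, with the tumor-associated libraries close together.

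Among the helicase subunits, Mcm5 rose most. In obese control libraries its lowest, median and highest values were 11.9, 15.9 and 28.1 CPM, and in tumor-associated libraries 39.6, 72.3 and 147 CPM, a log2 fold change of 2.22 (SE 0.39, adjusted p = 0.000162 by edgeR). Mcm2 went from 11.9, 17.8 and 23.5 CPM to 39.3, 68.2 and 131 CPM (2.10, SE 0.31, adjusted p = 3.63e-05 by edgeR). Both subunits thus had no overlap between the groups. Mcm7 had the smallest helicase change, 1.08 (SE 0.25, adjusted p = 0.00129 by edgeR), and Mcm3, Mcm4 and Mcm6 lay between at 1.94, 1.25 and 1.72. At the fork, Pcna went from 44, 46.9 and 55.9 CPM to 82.8, 96.3 and 122 CPM, a log2 fold change of 1.06 (SE 0.16, adjusted p = 3.73e-05 by edgeR) that was the smallest of all 44 members and had the smallest error. Pole, the catalytic subunit of the leading-strand polymerase, went from 16.7, 18.9 and 23.3 CPM to 30.6, 50.7 and 98.0 CPM (1.53, SE 0.30, adjusted p = 0.000343 by edgeR).

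Ribonucleotide reductase, which makes deoxynucleotides, gave the largest S-phase rise. Rrm2, its cell cycle-regulated subunit, went from a lowest, median and highest value of 5.83, 7.45 and 12.1 CPM in obese control to 28.7, 51.5 and 106 CPM in obese tumor-associated libraries, a log2 fold change of 2.84 (SE 0.40, adjusted p = 2.38e-05 by edgeR). That places it among the mitotic genes in size. Rrm1, the large subunit, went from 32.9, 37.6 and 51.6 CPM to 75.8, 127 and 252 CPM (1.87, SE 0.24, adjusted p = 8.83e-06 by edgeR).

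Mitotic genes rose by log2 fold changes of 1.94 to 3.34 in obese mice. Ccnb1, the cyclin that takes cells into mitosis with Cdk1, had the largest rise: 3.44, 4.80 and 12.5 CPM (lowest, median and highest) in obese control against 19.14, 51.4 and 129 CPM in tumor-associated libraries, a log2 fold change of 3.34 (SE 0.46, adjusted p = 1.89e-05 by edgeR). Cdk1 went from 7.83, 10.2 and 19.09 CPM to 34.3, 70.7 and 178 CPM (2.90, SE 0.42, adjusted p = 3.29e-05 by edgeR). Foxm1, the factor that drives many of these genes, went from 3.59, 5.72 and 11.2 CPM to 17.6, 37.7 and 80.6 CPM (2.75, SE 0.40, adjusted p = 3.34e-05 by edgeR). No library of the control group reached the lowest tumor-associated value in any of the 3. Top2a went from 33.5, 43.4 and 93.3 CPM to 154, 313 and 800 CPM (2.89, SE 0.46, adjusted p = 6.73e-05 by edgeR). Mki67, the usual marker of cycling cells, went from 50.8, 84.3 and 134 CPM to 240, 341 and 440 CPM (1.94, SE 0.36, adjusted p = 0.000251 by edgeR). It thus had the smallest change of the 26 while its counts were among the highest.

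Plk1, a kinase of mitotic entry and spindle assembly, went from 1.96, 2.73 and 6.20 CPM to 11.4, 28.7 and 49.2 CPM (3.00, SE 0.40, adjusted p = 1.45e-05 by edgeR). Ube2c, which with the anaphase-promoting complex marks cyclins for destruction, went from 3.62, 4.95 and 9.17 CPM to 12.9, 34.2 and 75.0 CPM (2.78, SE 0.44, adjusted p = 6.05e-05 by edgeR). Ube2c shares 22.8% of its exon bases with Tnnc2, a muscle gene on the opposite strand. Among other members, Gins2 shares 67.3% with Gse1, Kif20a 29.3% with Cdc23 and Ccne2 17.4% with Ints8, also on the opposite strand. The kinetochore and spindle genes not described here (Bub1, Bub1b, Ttk, Cenpe, Cenpf, Kif11, Kif20a, Kif23, Prc1, Tpx2, Nusap1, Aurka, Aurkb, Birc5 and Cdca8) all rose, with Cenpf at 3.33, Bub1 at 3.26 and Tpx2 at 3.11 the largest. The 17 S-phase and 26 mitotic calls of obese mice held in each fit with 1 library left out and in the fit with the mouse as a block.

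**Figure D3:**
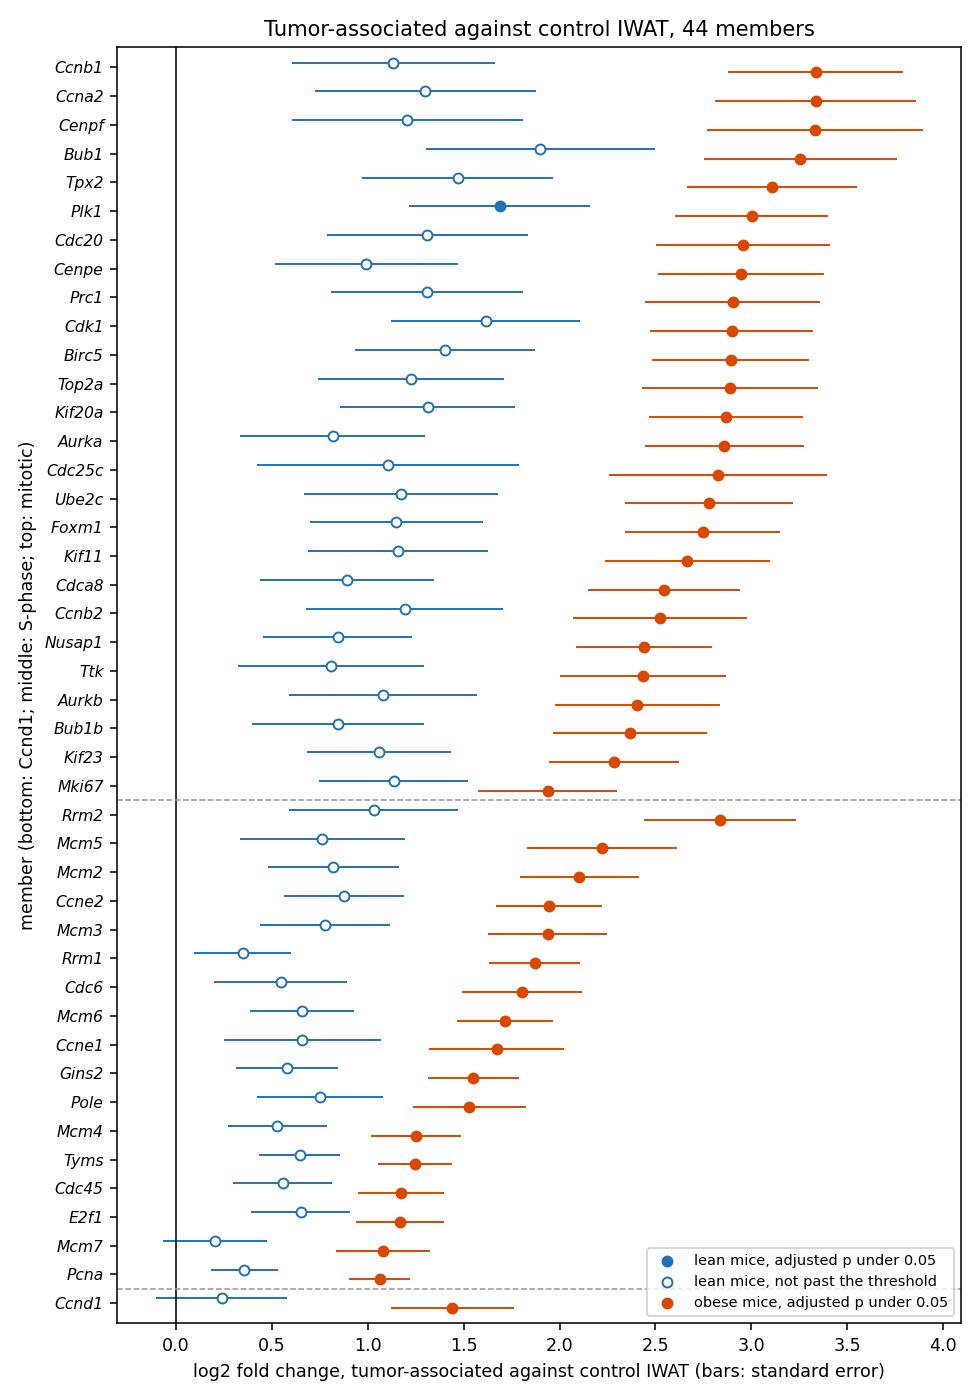
Tumor-associated against control IWAT as log2 fold change (x axis) with its standard error for each of the 44 members (y axis; Ccnd1 at the bottom, then S-phase genes, then mitotic genes), in lean mice in blue and obese mice in orange. Filled points passed an adjusted p of 0.05. Every obese point lies to the right of its lean point, and in lean mice Plk1 alone is filled.

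In lean mice the same genes were higher in tumor-associated IWAT by smaller amounts, and nearly all missed the threshold. None of the 17 S-phase genes and 1 of the 26 mitotic genes, Plk1, was called by edgeR, in a comparison in which 3.27% of tested genes were called higher and 0.913% lower. At an unadjusted p under 0.05, 10 S-phase and 20 mitotic genes were higher, against 10% of tested genes. The median log2 fold change was 0.65 for S-phase genes and 1.16 for mitotic genes, against 0.007 over all tested genes, and the pad with the tumor was higher in 5 of 5 mice for 10 S-phase and 21 mitotic genes, against 16.5% of tested genes. With the mouse as a block, which pairs the pads, 1 S-phase gene (Tyms) and 6 mitotic genes (Plk1, Cdk1, Prc1, Mki67, Tpx2 and Bub1) were called, and DESeq2 called 0 and 5.

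Plk1 was 0.697, 2.10, 0.919, 1.94 and 1.70 CPM in lean control and 3.03, 4.20, 2.72, 9.40 and 3.86 CPM in lean tumor-associated libraries (mice 0, 2, 3, 6 and 9). The groups did not overlap, which held for 2 of 26 mitotic and 0 of 17 S-phase genes, against 5.33% of tested genes. Its log2 fold change was 1.69 (SE 0.47, adjusted p = 0.047 by edgeR), with an adjusted p up to 0.175 over the alternatives, and it was called in 4 of 22 fits with 1 library left out. Bub1, a checkpoint kinase at the kinetochore, had the largest difference, 1.90 (SE 0.60, adjusted p = 0.0809 by edgeR). Cdk1 was 1.28, 5.25, 1.68, 8.45 and 5.59 CPM against 11.8, 15.4, 7.61, 22.5 and 9.11 CPM (1.62, SE 0.49, adjusted p = 0.0702 by edgeR). Mouse 6 had the highest lean control value for 15 of 17 S-phase and 21 of 26 mitotic genes, and the highest lean tumor-associated value for 16 and 26. Mki67 was 25.9, 64.5, 26.5, 122 and 93.9 CPM against 121, 147, 79.5, 267 and 116 CPM (1.14, SE 0.39, adjusted p = 0.117 by edgeR). Of the S-phase genes, Rrm2 was 3.02, 6.82, 1.99, 10.7 and 6.27 CPM against 10.3, 11.5, 5.84, 24.1 and 6.18 CPM (1.03, SE 0.44, adjusted p = 0.241 by edgeR). Mouse 9 was the exception there, with no higher value in the tumor-associated pad.

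Other named genes of both classes had positive differences in lean mice without a call. With the adjusted p by edgeR in brackets, Mcm5 had a log2 fold change of 0.76 (0.42), Mcm2 0.82 (0.219), Pcna 0.36 (0.319), Pole 0.75 (0.251), Ccne1 0.66 (0.492), Ccne2 0.88 (0.137) and E2f1 0.65 (0.189). Among mitotic genes, Top2a had 1.23 (0.19), Ccnb1 1.13 (0.29), Foxm1 1.15 (0.186) and Ube2c 1.17 (0.242).

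The obese minus lean difference of the tumor change was positive for every member, against 47.1% of tested genes. By its own test 1 of 17 S-phase genes, Rrm1, and 0 of 26 mitotic genes were called by edgeR, in a comparison in which 2.58% of tested genes were called higher and 2.34% lower. At an unadjusted p under 0.05, 13 S-phase and 20 mitotic genes passed, against 15.8% of tested genes. The median difference was 1.01 for S-phase and 1.60 for mitotic genes, against -0.043 over all tested genes. Rrm1 was 28.8, 35.9, 35.5, 57.5 and 39.5 CPM in lean control and 48.6, 47.3, 43.3, 71.6 and 39.5 CPM in lean tumor-associated libraries, beside the obese values above. The difference was 1.52 (SE 0.34, adjusted p = 0.0373 by edgeR; 0.0291 with the mouse as a block), and it was called in 9 of 22 fits with 1 library left out. Ccnb1 had a larger difference with a larger error, 2.20 (SE 0.69, adjusted p = 0.0587 by edgeR). These counts changed with single libraries. Without the tumor-associated library of obese mouse 1, 11 S-phase and 17 mitotic genes were called, and without lean tumor-associated mouse 6 the numbers were 5 and 4. DESeq2 called 5 and 9, and the block 1 and 2. The authors report larger tumors in HFD-fed than in chow-fed mice. Diet and tumor size thus cannot be told apart, here or between tumor-associated pads.

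Between control pads, few members passed the test. Even so, 26 of 26 mitotic and 16 of 17 S-phase genes had a positive obese minus lean difference, against 54.7% of tested genes. E2f1 alone was called higher in obese mice, with 10.1 ± 2.71 CPM (SD, n = 6) where lean mice had 5.81 ± 1.81 CPM (SD, n = 5) and a log2 fold change of 0.81 (SE 0.25, adjusted p = 0.03 by edgeR), where 9.54% of tested genes were called higher and 7.53% lower. The call was kept in 16 of 22 fits with 1 library left out. No mitotic gene was called by edgeR, while 8 passed an unadjusted p under 0.05, against 18% of tested genes, and DESeq2 called 2. The medians were 0.31 for S-phase and 0.84 for mitotic genes, against 0.04 over all tested genes. Cdk1 came closest among mitotic genes, with a log2 fold change of 1.38 (SE 0.48, adjusted p = 0.0505 by edgeR).

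Between tumor-associated pads, obese mice were higher in 17 of 17 S-phase genes and 26 of 26 mitotic genes, where 24.7% of tested genes were called higher and 22.4% lower. This comparison shares its obese tumor-associated libraries with the one within obese mice. The medians were 1.32 and 2.47, against 0.035 over all tested genes. Groups did not overlap, with obese mice higher, for 7 S-phase and 20 mitotic genes, against 11% of tested genes. Ccnb1 had the largest mitotic difference, with 6.21, 5.91, 3.67, 11.3 and 7.26 CPM in lean mice 0, 2, 3, 6 and 9 and 19.14 to 129 CPM in obese mice (3.17, SE 0.49, adjusted p = 5.65e-05 by edgeR). Rrm2 had the largest S-phase difference, 2.35 (SE 0.42, adjusted p = 0.000186 by edgeR). The smallest belonged to Tyms, which makes thymidylate, at 0.58 (SE 0.20, adjusted p = 0.0213 by edgeR), and to Pcna at 0.87 (SE 0.17, adjusted p = 0.000363 by edgeR). Ccnd1 did not pass, at 0.32 (SE 0.33, adjusted p = 0.441 by edgeR). Over the alternatives, the S-phase calls between these pads fell to 13 at the lowest. Mcm7, Tyms, Mcm4, Cdc6, Cdc25c and Mki67 each missed the threshold in at least 1 alternative. Their largest adjusted p was 0.287 by edgeR, for Mcm7, and Tyms was called in 18 of 22 fits with 1 library left out.

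**Figure D4:**
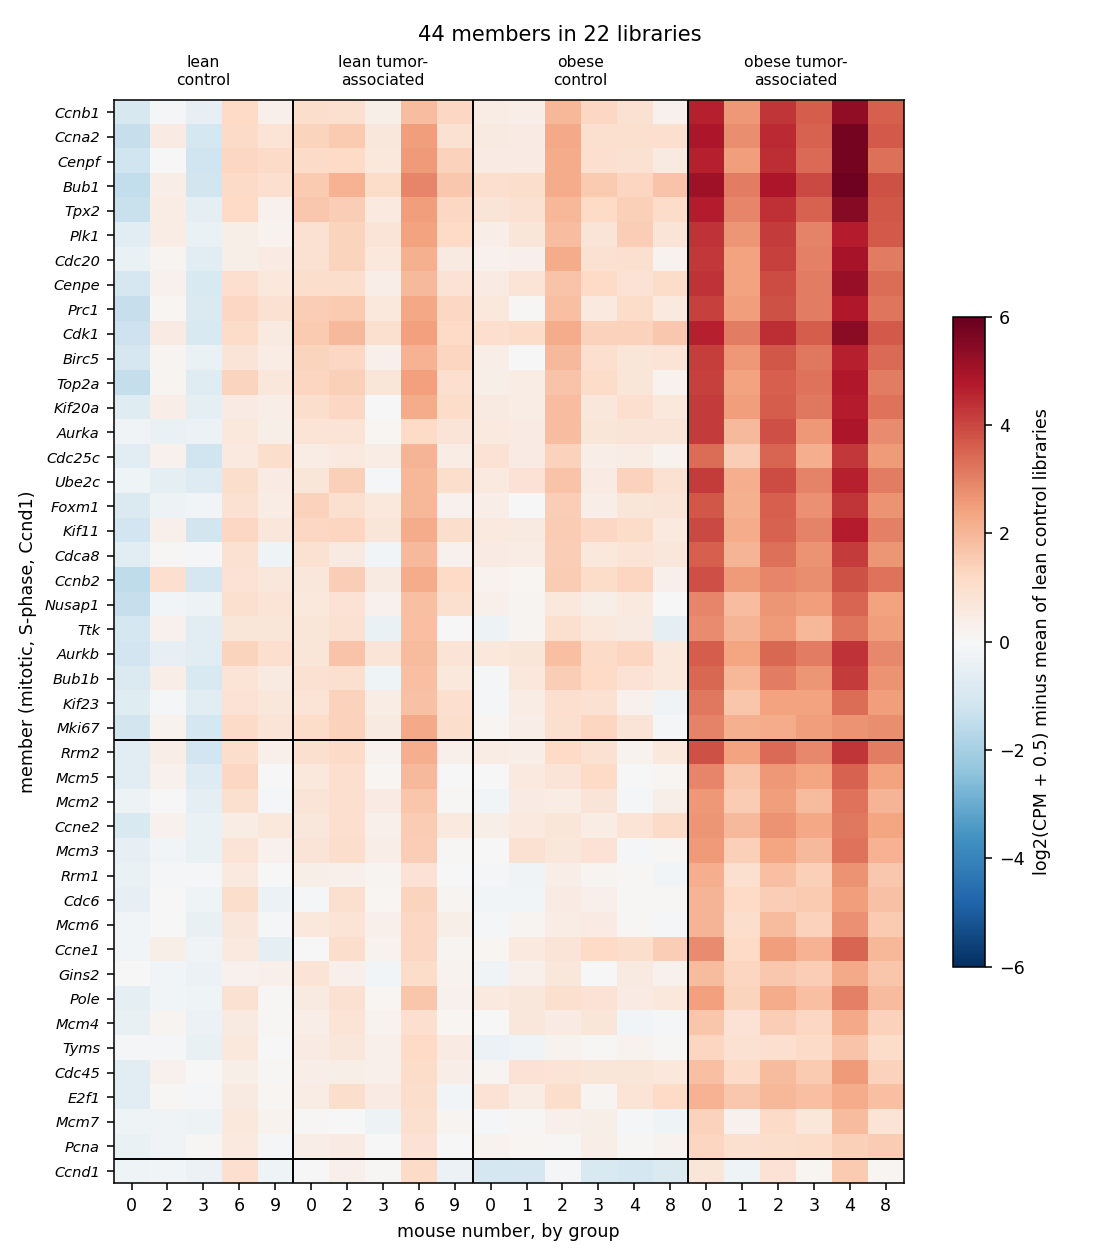
Expression of the 44 members (y axis) in the 22 libraries (x axis, mouse numbers by group) as log2(CPM + 0.5) minus the mean of the 5 lean control libraries, with red above and blue below that mean. The obese tumor-associated columns are red throughout the mitotic and S-phase rows, most in mouse 4 and least in mouse 1, and mouse 6 stands out in both lean groups.

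Libraries within the obese tumor-associated group differed widely, with the same mice at the highest and lowest ends for most members. Mouse 4 had the highest value for 16 of 17 S-phase and 24 of 26 mitotic genes, and mouse 1 the lowest for 17 and 25. The mitotic sum was 4886, 3127, 2349, 1721, 1613 and 1022 CPM in mice 4, 0, 2, 8, 3 and 1. Other transcripts moved with it. The sum of 7 adipocyte markers (such as Adipoq and Plin1) was 1801, 3073, 6688, 9841, 8482 and 11103 CPM in the same order, and 12601 to 22804 CPM in obese control libraries. All 7 were called lower. A set of 10 germline and embryonic genes, picked earlier for their values in these libraries and so given as a description, summed to 1000, 441, 509, 102, 172 and 40.1 CPM, against 5.99 to 85.7 CPM in obese control, 0.622 to 9.09 CPM in lean tumor-associated and 0.348 to 2.45 CPM in lean control libraries. All 10 were above 0 in each obese tumor-associated library, and 0 of 10 were above 0 in every lean control library. Macrophage markers did not share the order: their sum was lowest in mouse 4, at 1298 CPM, and 3862, 1979, 3799, 3803 and 3970 CPM in mice 0, 2, 8, 3 and 1. Of 7 macrophage markers, 6 were called higher in lean and 7 in obese tumor-associated IWAT. Luminal markers (5 of 6), basal epithelial markers (3 of 4) and endothelial markers (4 of 4) were called lower in obese tumor-associated IWAT. The sum of 5 fibroblast markers was 4630 to 6909 CPM in lean control and 10065 to 15278 CPM in lean tumor-associated libraries, with 2 called higher (0 with the mouse as a block). In obese mice it was 3643 to 8458 CPM and 4025 to 13994 CPM, with 2 called higher and 1 lower, and the lowest tumor-associated value belonged to mouse 4. The part of these transcripts in the rise of the members was not tested.

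Without mice 0, 2 and 4 of the obese tumor-associated group, those with the highest germline sums, 15 of 17 S-phase and 26 of 26 mitotic genes were called higher. The medians were 1.17 and 1.99, and the share of all tested genes called in that fit is not given here. The kept mice 8, 3 and 1 had germline sums of 102, 172 and 40.1 CPM, so that the fit did not remove these transcripts. Ccne1 (0.93, adjusted p = 0.051 by edgeR), Mcm7 and Ccnd1 missed the threshold in that fit. Obese control mouse 2 had the highest value of its group for 25 of 26 mitotic genes but for only 5 of 17 S-phase genes. Its Ccnd1, at 145 CPM, and its germline sum, at 85.7 CPM, were also the highest of the group. Obese control mice 1 and 3 stood apart by B cell markers (473 and 439 CPM summed, 2.00 to 10.5 CPM in the others) and mouse 1 by muscle markers (1907 CPM). Without obese control mice 1 and 3, 17 and 26 genes were called in obese mice, as in each fit with 1 library left out.

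**Figure D5:**
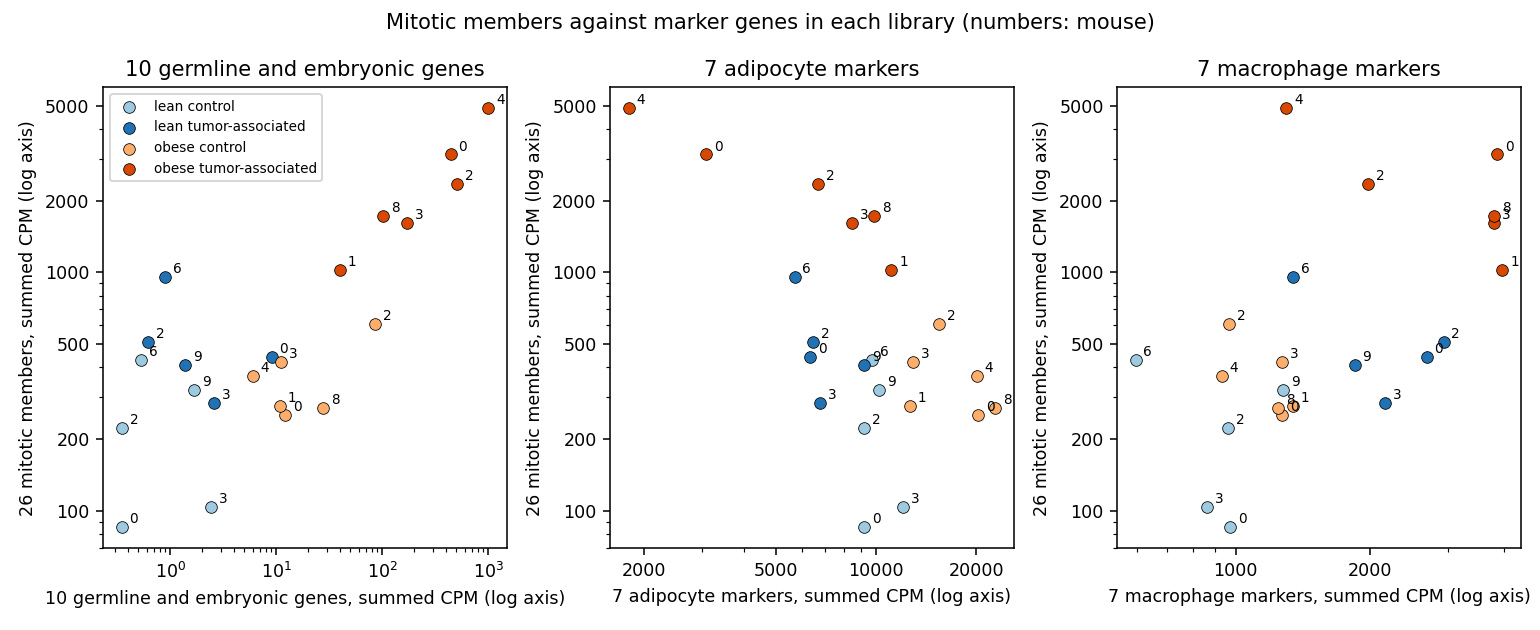
Summed CPM of the 26 mitotic members (y axis) against summed CPM of 10 germline and embryonic genes, 7 adipocyte markers and 7 macrophage markers (x axes), all on log axes, with 1 point per library and mouse numbers beside the points. Among the 6 obese tumor-associated libraries, mouse 4 has the most mitotic and germline transcript and the least adipocyte transcript, and mouse 1 the least mitotic and germline transcript and the most adipocyte transcript.

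Genes that restrain or drive the cycle upstream were taken from lists of the pathway. Of 7 CDK inhibitors, 6 passed the filter. In obese mice 0 of 6 rose and 2 fell, with a list median of -0.21. Of all tested genes, 26.8% were called higher and 27.7% lower. Cdkn1c, which encodes p57, was 12.5 ± 2.34 CPM in obese control and 4.66 ± 2.01 CPM in obese tumor-associated IWAT (SD, n = 6), and fell by 1.42 in log2 (SE 0.27, adjusted p = 0.000269 by edgeR). Cdkn2c, which encodes p18 and binds Cdk4 and Cdk6, fell in both diets, by 0.60 in obese mice (SE 0.14, adjusted p = 0.00125 by edgeR) and by 0.66 in lean mice (SE 0.15, adjusted p = 0.0139 by edgeR). In control IWAT it was also lower in obese than in lean mice, at 47.7 ± 11.3 CPM (SD, n = 6) against 112 ± 7.62 CPM (SD, n = 5). Cdkn1a, which encodes p21, did not pass in obese mice (0.19, adjusted p = 0.416 by edgeR). Cdkn2a had 0 to 5 counts per library and was not tested.

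Cdk4 and Cdk6, the kinase partners of D-type cyclins, rose in obese mice, by 1.32 (SE 0.21, adjusted p = 6.85e-05 by edgeR) and 1.60 (SE 0.21, adjusted p = 1.5e-05 by edgeR), while Ccnd2 and Ccnd3 had changes of 0.09 (adjusted p = 0.627 by edgeR) and -0.13 (adjusted p = 0.193 by edgeR). The obese minus lean difference was called for both kinases, at 1.09 (adjusted p = 0.0486 by edgeR; 0.0531 with the mouse as a block) and 1.35 (adjusted p = 0.0392 by edgeR). Of 8 genes of the retinoblastoma family, the MuvB complex and its partner B-Myb, 4 rose and 3 fell, against 26.8% of tested genes higher and 27.7% lower. Mybl2, which encodes B-Myb, rose by 2.81 (SE 0.50, adjusted p = 0.000179 by edgeR) and Rbl1, which encodes p107, by 0.99 (SE 0.17, adjusted p = 0.000157 by edgeR), while Rb1 fell by 0.68 (SE 0.15, adjusted p = 0.000812 by edgeR). Of 7 other E2F genes 6 rose, led by the repressor E2f8 from 5.25 to 45.2 CPM on average, a log2 fold change of 3.09 (SE 0.55, adjusted p = 0.000164 by edgeR), and by E2f7 at 1.82 (SE 0.30, adjusted p = 8.42e-05 by edgeR).

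Further genes of replication and mitosis rose as well. Of 25 other licensing and fork genes 24 rose in obese mice (median 1.67), led by Orc1 at 2.88 (SE 0.57, adjusted p = 0.000393 by edgeR) and Uhrf1 at 2.73 (SE 0.51, adjusted p = 0.000267 by edgeR), and Gins4 did not pass (0.02, adjusted p = 0.893 by edgeR). Of 26 other mitotic genes 25 rose (median 2.64), led by Cdca5 at 3.21 (SE 0.51, adjusted p = 6.51e-05 by edgeR) and Kif2c at 3.12 (SE 0.46, adjusted p = 3.59e-05 by edgeR), and Pttg1 did not pass (0.41, adjusted p = 0.106 by edgeR). Of 6 checkpoint kinases and CDC25 phosphatases 5 rose, led by Chek1 at 2.19 (SE 0.47, adjusted p = 0.000776 by edgeR) and Cdc25b at 1.61 (SE 0.23, adjusted p = 2.94e-05 by edgeR). In lean mice, 0 of 25 licensing and fork genes and 1 of 26 other mitotic genes were called (1 and 4 with the mouse as a block). The mitotic gene was Hmmr, which encodes a spindle-associated protein, at 1.71 (SE 0.46, adjusted p = 0.0399 by edgeR).

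Between tumor-associated pads of obese and lean mice, Cdkn1c was again lower in obese mice (-1.99, SE 0.27, adjusted p = 2.33e-05 by edgeR), as was Cdkn2c (-1.17, SE 0.14, adjusted p = 9.03e-06 by edgeR), while Cdkn1a was higher (0.75, SE 0.20, adjusted p = 0.00493 by edgeR). E2f8 was higher by 3.14 (SE 0.59, adjusted p = 0.000307 by edgeR), Cdt1, the loading factor of the helicase, by 2.63 (SE 0.43, adjusted p = 9.44e-05 by edgeR) and Mybl2 by 2.62 (SE 0.53, adjusted p = 0.000577 by edgeR). Of the lists, 23 of 25 licensing and fork genes and 24 of 26 other mitotic genes were called higher in this comparison.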

How the data were processed

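RNA of 22 libraries was used, each assigned to diet, pad and mouse from the labels. The values are raw counts per gene symbol as deposited by the authors, who used prinseq for filtering, STAR 2.4.0f with mm10 for mapping and HTSeq for counting; the annotation and the strand setting are not given in the sources used here. The table holds 23420 symbols and 5 lines that name no gene, which were left out. Reads that 2 overlapping genes share can therefore be lost or misplaced.

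In R 4.3.3, edgeR 4.0.16 (quasi-likelihood, TMM, filter by group, Benjamini-Hochberg, threshold 0.05) was fitted to all 4 groups without a block, for 5 comparisons, after being tested on simulated data. DESeq2 1.42.0, upper-quartile normalization, other filters, a block for the mouse and left-out libraries were alternatives. The sets of libraries left out together were chosen after seeing the data. Log2 CPM used a prior count of 2. Pads of a mouse come from the same animal; deviations from the group means correlated with a median r of 0.508 in lean mice (5 of 5 over 0.1) and 0.168 in obese mice (4 of 6). Libraries of a group all differed beyond counting noise, with a chi-square of at least 5.69 per degree of freedom. Members and lists were chosen with earlier results of these data known. Genes described in full were fixed by role (16 members), with the largest called change per class and comparison and, from the pathway lists, regulators named in advance and the 2 largest called changes; not all are printed. 1 gene of the licensing and fork list is not reported here and was left out of its counts. Motifs were searched as exact letters. Exon lengths and overlaps come from GENCODE M21.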

Additional observations from a re-analysis of the deposited data

Results flagged for a closer look

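2 libraries lay far from the rest of their group, by Dixon's criterion, in 72 groups of values examined for the 16 members described in full and both class means; chance gives about 1 in 20. Both concern Ccnd1: lean control mouse 6, at 8.24 log2 CPM, and obese control mouse 2, at 7.19 log2 CPM.

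The tumor change differed between obese and lean mice by its own test for 1 member, Rrm1, with an obese minus lean difference of 1.52. Among other genes of the pathway it differed for E2f4 (1.06), E2f5 (1.25), Cdk4 (1.09), Cdk6 (1.35), Gins1 (1.59), Mad2l1 (2.02), Smc2 (1.12) and Cks1b (1.83), all larger in obese mice, with adjusted p from edgeR between 0.0392 and 0.0486. With the mouse as a block, E2f4 (adjusted p = 0.0626 by edgeR), E2f5 (0.0669), Cdk4 (0.0531) and Smc2 (0.065) missed the threshold.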

How the results depend on the processing

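In obese mice and between tumor-associated pads, both counts of members called stayed within 1.5 times under all alternatives, the lowest mitotic count being 18, where requiring 10 counts per library left 18 members to test. The other counts were small and moved. In lean mice mitotic calls were 1, and 0 with upper-quartile normalization, without a filter or with at least 10 counts in every library, 2 in the fit to the compared groups, 5 with DESeq2, 6 with the replicate block, 0 to 3 with a library or mouse left out, 0 without obese control mice 1 and 3, 5 without obese tumor-associated mice 0, 2 and 4, and 0 without lean mouse 6 and obese control mouse 2; S-phase calls were 0, 1 with the block and 0 to 1 with a library or mouse left out. For the obese minus lean difference, mitotic calls were 0, 9 with DESeq2, 2 with the block and 0 to 17 with a library or mouse left out; S-phase calls were 1, 5 with DESeq2, 0 without a filter, 1 with the block, 0 to 11 with a library or mouse left out, 0 without obese tumor-associated mice 0, 2 and 4, and 0 without lean mouse 6 and obese control mouse 2. Between control pads, mitotic calls were 0, 2 with DESeq2, 3 in the fit to the compared groups, 0 to 2 left out and 5 without obese tumor-associated mice 0, 2 and 4; S-phase calls were 1, 2 with DESeq2, 3 in the fit to the compared groups, 0 to 3 left out, 3 without obese tumor-associated mice 0, 2 and 4, and 2 without lean mouse 6 and obese control mouse 2. The cause was not tested. Ccnd1 turned sign in lean mice without tumor-associated mouse 6 (range -0.074 to 0.59 with a library left out) and between tumor-associated pads without obese mice 0, 2 and 4 (-0.34). Leaving out a replicate's library did not turn any other of the 16 members. The block changed no call of a member in obese mice. In the pathway and marker lists it moved the licensing and fork count from 24 to 23 in obese mice. The macrophage count went from 6 to 7 in lean mice, and B cell markers called lower in obese mice from 1 to 3. For the obese minus lean difference, licensing and fork calls went from 1 to 3. Calls of the list of the retinoblastoma family, MuvB complex and B-Myb went from 0 to 1 there, and luminal markers called lower from 1 to 0. Other changes are named with their results. Low counts limit Cdc25c, Plk1 and Bub1 in lean control libraries, where single libraries had 0, 6 and 3 counts.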
